A study of Mus musculus with 12 samples.

Results

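The genes described here signal DNA damage and repair it: 49 were listed by name, from checkpoint kinases to the glycosylases that remove single damaged bases. A gene was matched where the array's own gene name was the listed symbol or an older one (G22p1 for Xrcc6, Nbs1 for Nbn, H2ax for H2afx, Rad53 for Chek2), and it was read from its brightest probe. Atr and Mdc1 had no probe of that name, and the Bard1 probe was too dim on most arrays, which left 46 genes among 17276 tested. The samples were B cells sorted from the spleens of C57BL/6 mice. The mutant mice carried floxed Ebf1 on both alleles with RERT-Cre, a Cre recombinase that tamoxifen switches on (Ebf1fl/flRERTCre, called fl/fl), and the heterozygote controls carried floxed Ebf1 on 1 allele with the same Cre (Ebf1+/flRERTCre, called +/fl). Mice of both genotypes received 3 mg of tamoxifen citrate per day over 4 days and were killed on day 10, so no group lacks Cre, tamoxifen or a floxed allele. Each genotype gave a resting group and a group stimulated with LPS, a bacterial product that activates B cells through TLR4, with 3 arrays in each of 4 groups. LPS dose, LPS time and the age of the mice are missing from the labels. The labels name a B220+AA4.1- gate and a B220+AA4.1-CD21lo gate without saying which samples passed through which, and nothing in them ties the triplicates to different animals, so a p-value here speaks of the scatter among these samples, part or all of which may be technical.

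A DNA lesion is handled according to its kind. Base excision repair removes small base changes, nucleotide excision repair cuts out bulky ones, and a double-strand break is rejoined by end joining or copied from the sister chromatid by homologous recombination, which works mainly in cells that replicate their DNA. Kinases at the break or the stalled fork (Atm, Atr, Chek1, Chek2) hold the cell cycle meanwhile. B cells use several of these enzymes in antibody genes as well: uracil made by activation-induced deaminase is cut out by glycosylases, and end joining completes class switching, to which LPS stimulation can lead.

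The probes for Ebf1, the gene targeted for deletion, disagreed in direction. The probe for NM_007897 read 1.70 to 1.84 in resting fl/fl and 0.78 to 1.42 in resting +/fl cells, while the probe for AK036716 read −4.99 to −4.18 against −3.13 to −2.15. All values are log2 signals with the 75th percentile of the array set to 0, so a difference of 1 is a 2-fold difference. Both differences passed in limma, in opposite directions (0.62 with SE 0.15 and −1.90 with SE 0.48, adjusted p 0.0385 and 0.0432 over all probes), and the sources used here do not place the deletion relative to the probes. After LPS neither probe passed (0.12 and −0.92, adjusted p 0.675 and 0.315). All 10 B cell markers were above background on every array. Between 54.4% and 61.4% of spots were well above background on 11 arrays, but 83.2% were on LPS fl/fl replicate 2. The arrays lay on 3 slides of 4, and each slide held more than 1 group. The layout was uneven after LPS. LPS fl/fl replicates 1 to 3 lay on slides 3, 3 and 2 and LPS +/fl replicates on slides 2, 1 and 1. Only slide 2 thus held both LPS groups. Resting +/fl 3 and LPS +/fl 1 share a number in their sample names, and the numbers of the resting fl/fl samples lie below all others.

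In resting fl/fl B cells 7 of the 46 repair genes were lower than in +/fl cells and none was higher. Chek1, Rad51ap1, Rad54l and Fancd2, which act at replication forks and in recombination, were lower by 2.79-fold to 4.33-fold. Brca2, Xrcc6 and Parp1 were lower by smaller amounts in this fit. The test was limma over all 12 arrays with p-values adjusted by Benjamini-Hochberg across every gene tested and called at 0.05, by which 4.15% of all genes were lower and 4.64% higher (8.79% in either direction). Of the 46 genes 34 had a difference below 0, as did 44.7% of all genes, and the median of the 46 was −0.14 against 0.05 for all genes.

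**Figure D1:**
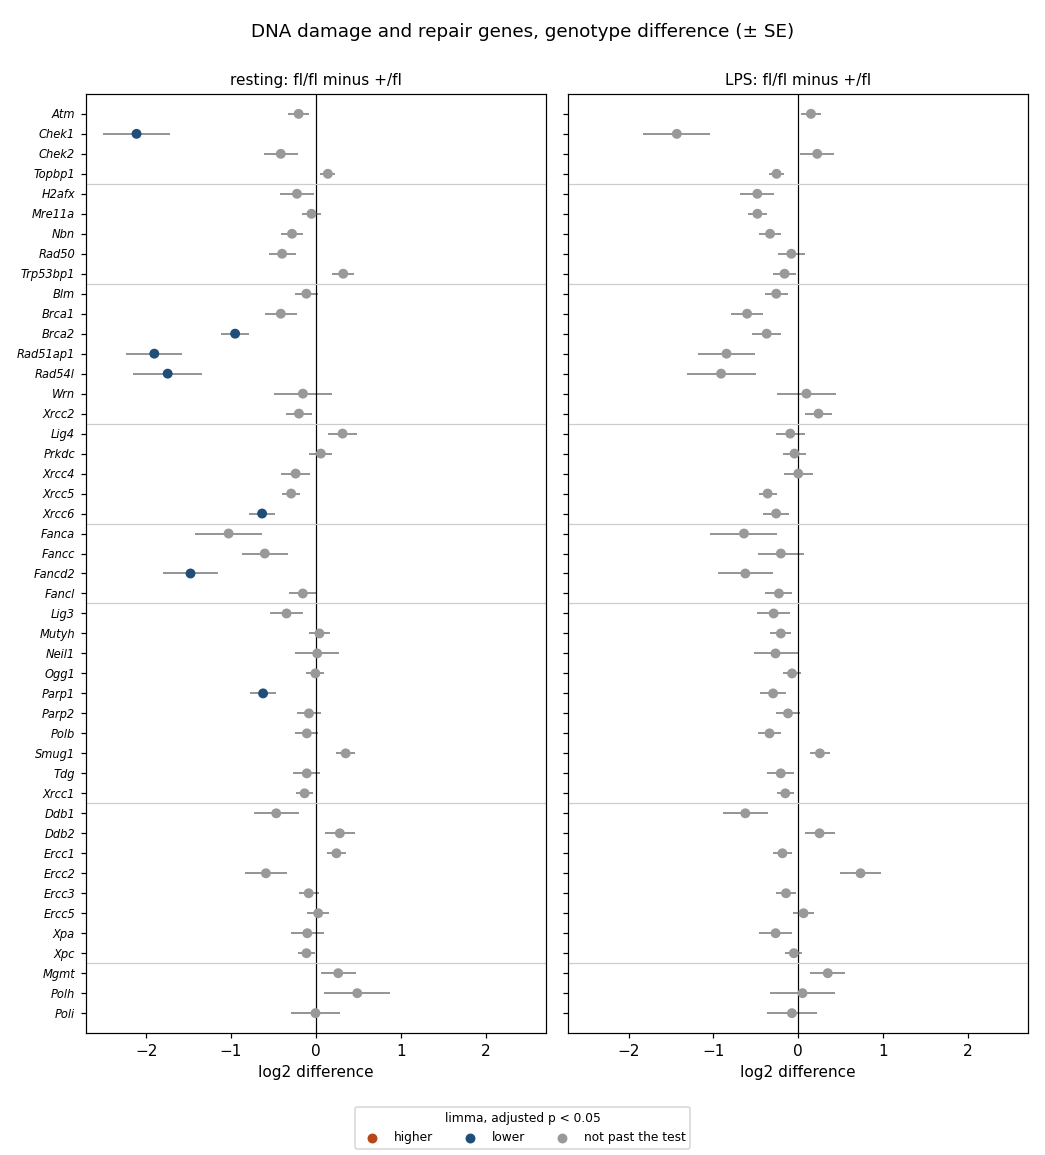
Difference between fl/fl and +/fl cells (log2, fl/fl minus +/fl, with its standard error) for each of the 46 repair genes, in resting cells on the left and after LPS on the right, with grey lines between roles. Blue points passed as lower: 7 genes in resting cells, led by Chek1 at −2.11, and none after LPS, where Chek1 read −1.43.

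Chek1 encodes the kinase that ATR activates to stop the cell cycle when replication stalls. Its probe (NM_007691, chr9:36636248-36636307 in the mm7 positions of the files) read −4.43, −5.80 and −4.04 in resting fl/fl cells and −2.36, −3.05 and −2.51 in resting +/fl cells, or −4.76 ± 0.93 against −2.64 ± 0.36 (SD, n = 3 each). Every fl/fl array lay below every +/fl array, and replicate 2 was the lowest in each group. The fitted difference was −2.11 (SE 0.39, adjusted p 0.0151, 4.33-fold). The probe was above background on 2 of the 3 resting fl/fl arrays, so its low values are less certain, and the other Chek1 probe tested gave −2.06.

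Rad51ap1 helps to pair DNA strands during homologous recombination. It read −3.17, −2.72 and −2.17 in resting fl/fl and −0.47, −1.42 and −0.46 in resting +/fl cells, a difference of −1.90 (SE 0.33, adjusted p 0.0125). Rad54l, a DNA translocase that acts in strand exchange, read −3.46, −3.18 and −3.04 against −1.30, −2.27 and −0.87, a difference of −1.75 (SE 0.41, adjusted p 0.0323). In both genes the groups did not overlap, and +/fl replicate 2 lay nearer to the fl/fl arrays than its fellow replicates did. Brca2, a tumour suppressor needed for homologous recombination, read −1.19, −1.08 and −0.86 against 0.16, −0.47 and 0.04, a difference of −0.95 (SE 0.17, adjusted p 0.0128), and +/fl replicate 2 was again the lowest of its group.

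Fancd2, the protein of the Fanconi anaemia pathway that is ubiquitinated at DNA crosslinks, read −4.87, −4.33 and −4.27 in resting fl/fl and −3.24, −3.29 and −2.52 in resting +/fl cells. Its difference was −1.48 (SE 0.33, adjusted p 0.0273), with no overlap and with 2 of 3 fl/fl arrays above background. Xrcc6, the smaller subunit of the Ku ring that holds broken ends for joining, read −0.03, 0.28 and 0.02 against 0.84, 0.92 and 0.42, a difference of −0.63 (SE 0.15, adjusted p 0.0338). Here the groups lay closest together, 0.28 in the highest fl/fl array and 0.42 in the lowest +/fl array. Parp1, which senses strand breaks and marks them with poly(ADP-ribose), was lower by a similar amount (−0.62, SE 0.16, adjusted p 0.0399), with 3.44 to 3.82 in fl/fl and 4.02 to 4.38 in +/fl cells.

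**Figure D2:**
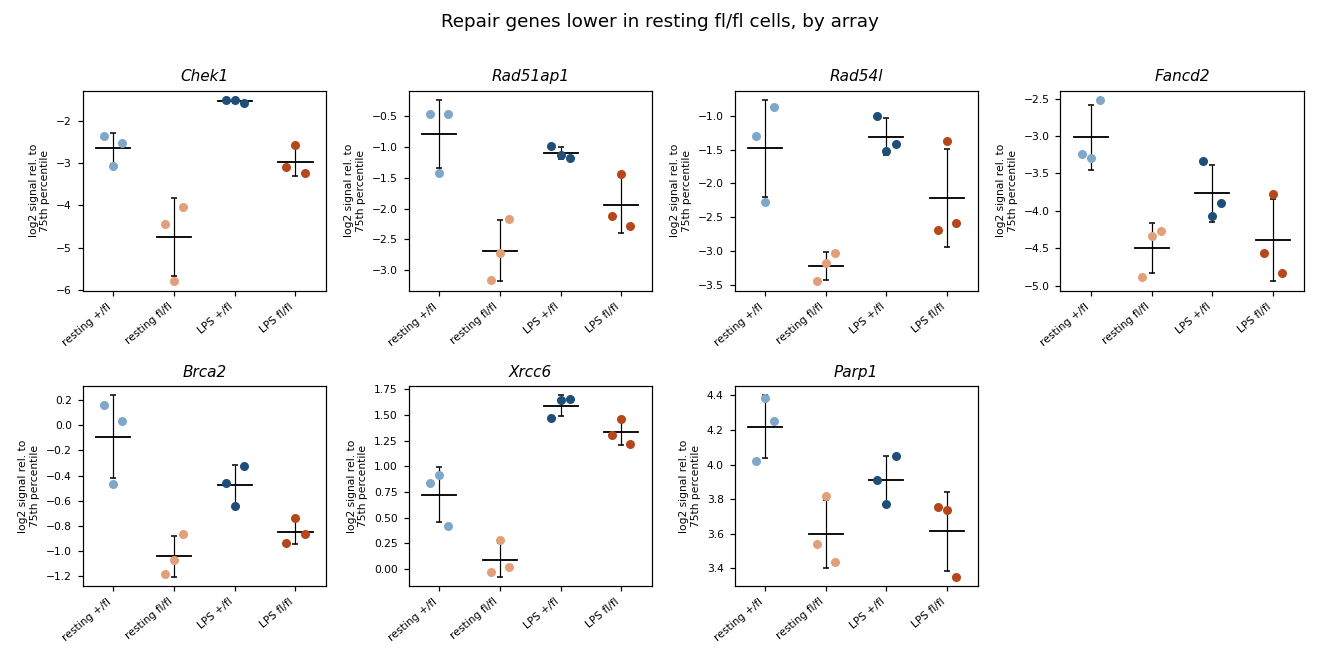
Signal of the 7 repair genes that were lower in resting fl/fl cells (log2 relative to the array's 75th percentile), 1 point per array in each of the 4 groups, with the mean (line) and SD (bars, n = 3). The resting groups do not overlap in any of the 7 panels, and after LPS the ranges overlap at Rad54l and Fancd2 but not at Chek1, Rad51ap1, Brca2, Xrcc6 and Parp1.

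The resting genotype difference is given here by role, and roles were not tested against each other. Homologous recombination and the RecQ helicases had 3 of 7 genes lower and all 7 differences below 0 (median −0.41), and the Fanconi anaemia genes had 1 of 4 lower and all 4 below 0 (median −0.82). Among those Fanca, part of the core complex, read −1.03 but did not pass (adjusted p 0.127). Checkpoint genes and end joining had 1 lower of 4 and 1 lower of 5. Base excision repair had 1 lower of 10 (median −0.09), break recognition 0 of 5, nucleotide excision repair 0 of 8 (median −0.09) and lesion bypass with direct reversal 0 of 3. Brca1 read −0.41 (adjusted p 0.196) and Chek2 −0.41 (adjusted p 0.215), but the other Chek2 probe tested read 0.47. The highest differences above 0, at Polh (0.49, adjusted p 0.453) and Smug1 (0.35, adjusted p 0.0797), did not pass either.

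The resting values did not overlap between genotypes for 13 of the 46 genes (28.3%), against 31.2% of all genes. The groups did not overlap in any of the 7 lower genes, so each had to be lower within all 3 slides, whose signs add nothing. The sizes by slide were −1.37, −3.44 and −1.53 for Chek1, −1.75, −2.25 and −1.71 for Rad51ap1, and −0.85, −0.21 and −0.81 for Parp1. With slide as a fixed block 5 of the 7 stayed called, all but Xrcc6 and Parp1. With slide as a random block all 7 did. Background correction set the size of the differences at dim probes: with normexp, which adds an offset to every signal, Chek1 read −0.59, Rad54l −0.96 and Rad51ap1 −1.25, all still called, and Fancd2 −0.34 (adjusted p 0.181). Brca2 (−0.72) and Parp1 (−0.66) then differed by more than Chek1 and Fancd2. The count of 7 rested on single arrays, since it was 2 (Brca2 and Rad51ap1) without resting +/fl 1 and 4 without resting fl/fl 1 (Fancc and 3 of the 7), resting fl/fl 3, resting +/fl 3 or LPS +/fl 3. Brca2 was not called with each array scaled by its median or with the mean over its probes. Even so, no single array ended its call or that of Rad51ap1. That of Chek1 ended without resting +/fl 1 (adjusted p 0.0534), that of Fancd2 without any 1 of 3 arrays, that of Rad54l without any 1 of 6, that of Xrcc6 without any 1 of 7 and that of Parp1 without any 1 of 9. Without the pair of +/fl arrays that share a number only Xrcc6 was called, and with a fit on the 6 resting arrays alone none was.

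Markers of cycling cells moved with these genes. Of 30 cycling-cell genes 15 were lower in resting fl/fl cells and none was higher (median −1.84), and their summed signal was 103 to 116 in fl/fl against 133 to 206 in +/fl cells. The lowest of the +/fl sums, 133, was that of replicate 2. Of 15 monocyte, macrophage and neutrophil markers 1 was lower (median −1.17), with summed signals of 32.4 to 52.8 against 44.9 to 190, and the highest sums were in +/fl replicates 1 and 3. Of 10 erythroid markers none passed (median −1.28, sums of 30.4 to 322 against 142 to 228). Of 10 T cell markers none passed (median −0.45), and of 6 platelet markers 2 were higher. Of 10 B cell markers 2 were lower and none was higher (median −0.35, sums of 525 to 596 against 574 to 720). In these bulk samples fewer cells of a type and less RNA per cell cannot be told apart, and the part of cycling or of other cells in the repair genes was not tested. Without +/fl replicates 1 and 3 only 1 array is left in that group, so only the sizes of the differences are given. Chek1 then read −1.70, Rad51ap1 −1.26, Fancd2 −1.21, Rad54l −0.95, Xrcc6 −0.83, Parp1 −0.79 and Brca2 −0.58. Polh read 1.44, a value set by the +/fl array left, which at −4.75 was the lowest of its group.

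Promoters of the repair genes were searched for a motif that E2F factors bind in genes of DNA replication. The letters searched were TTTCCCGC, TTTGGCGC, TTTGCCGC and TTTCGCGC on both strands, in RefSeq windows of the GRCm38.p6 build from 250 bases before to 50 bases after each start site. Of the 49 genes 37 matched a window by symbol, and 6 of the 37 held a match (16.2%): Bard1, Brca2, Chek2, Mdc1, Topbp1 and Xrcc6. Among all 27025 genes with a window 2.605% held one. The TTTGAA element known from genes of mitosis was in 2 of the 37 (5.41%, Bard1 and Ercc5) against 20.2% of all genes. The stretches below are 80 bases of the plus strand around the match in the measured genes, with the matched letters, here the reverse complement of the motif, in capitals.
Brca2, chr5:150522417-150522496: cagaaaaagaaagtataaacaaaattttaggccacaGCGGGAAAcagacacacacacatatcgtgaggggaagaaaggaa
Xrcc6, chr15:82016287-82016366: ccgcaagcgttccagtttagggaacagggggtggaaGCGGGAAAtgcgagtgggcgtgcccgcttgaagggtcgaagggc
Chek2, chr5:110839795-110839874: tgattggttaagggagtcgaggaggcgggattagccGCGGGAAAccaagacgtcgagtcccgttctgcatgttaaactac
Topbp1, chr9:103305162-103305241: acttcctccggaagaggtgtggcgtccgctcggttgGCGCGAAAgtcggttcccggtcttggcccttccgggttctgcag

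Brca2, Xrcc6 and Chek2 share the same 8 letters, GCGGGAAA, and Topbp1 has GCGCGAAA. The match begins 168 bases before the start site in Brca2, 152 in Chek2, 129 in Topbp1 and 46 in Xrcc6. Of these 4 genes Brca2 and Xrcc6 were lower in resting fl/fl cells, while Chek2 (−0.41) and Topbp1 (0.14) did not pass. The windows of Chek1, Rad51ap1, Rad54l and Parp1 hold none of the letters searched, and Fancd2 matched no window. A match is a description of the sequence, and binding was not measured.

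After LPS none of the 46 genes passed between the genotypes in limma, where 1.64% of all genes did (0.874% higher and 0.764% lower). At an unadjusted p under 0.05 there were 13 of the 46, against 21.5% of all genes. Of the 46 differences 35 were below 0, as were 45.8% of those of all genes (median −0.20 against 0.04 for all genes). The values did not overlap between genotypes for 23 of the 46 genes (50%), against 33.2% of all genes. The smallest adjusted p was at Mre11a, the nuclease of the complex that first binds broken ends, which read 2.03, 2.07 and 2.11 in the fl/fl group and 2.43, 2.65 and 2.58 in the +/fl group (difference −0.48, SE 0.11, adjusted p 0.0583). Chek1 had the largest difference, with −3.08, −2.58 and −3.22 against −1.51, −1.51 and −1.57 (−1.43, SE 0.39, adjusted p 0.0928). In both genes every fl/fl array lay below every +/fl array. Brca1, which directs breaks to recombination, read −1.72, −1.39 and −1.69 against −0.82, −1.15 and −1.03 (−0.60, adjusted p 0.128). Xrcc5, the larger Ku subunit, read −0.36 (adjusted p 0.107), Rad51ap1 −0.85 (adjusted p 0.186) and Rad54l −0.91 (adjusted p 0.232). The highest difference above 0 was at Ercc2, a helicase that opens DNA around bulky lesions (0.73, adjusted p 0.140).

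Some settings did call a gene here. Chek1 passed as lower with each array scaled by its median, with normexp background correction and without resting fl/fl 2, and Mre11a with normexp, with the stricter filter on dim probes, with a trended and robust variance and without resting +/fl 1. Of the 3 Mre11a probes tested, however, 1 had the opposite sign (0.16). The mean over the Mre11a probes was −0.17 in limma (adjusted p 0.349). Without LPS fl/fl 2, the array with more spots above background, none passed. Only slide 2 held both LPS groups, so genotype after LPS and slide can be told apart only in part. With slide as a fixed block the genes called among all 17276 went from 283 to 8, and the median of the 46 was −0.18. Among the markers 6 of 30 cycling-cell genes were lower in LPS fl/fl cells (median −0.97, sums of 111 to 138 against 172 to 208). Of 10 B cell markers 1 was lower (median −0.69, sums of 253 to 305 against 324 to 328). No marker of the other lists passed, with medians of 1.04 for 6 platelet, 0.61 for 15 monocyte, macrophage and neutrophil, 0.58 for 10 T cell and −0.57 for 10 erythroid genes. The part of these cells in the repair genes was not tested.

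LPS changed repair genes in both directions. In +/fl cells 21 of 46 rose (45.7%) and 7 fell (15.2%), and in fl/fl cells 20 rose (43.5%) and 7 fell (15.2%). Among all genes 30.6% rose and 26.9% fell in +/fl cells (57.6% called), and 30.2% rose and 25.3% fell in fl/fl cells (55.5% called). The share of the 46 called in either direction, 60.9% and 58.7%, was thus near that of all genes. By direction, the share that rose was above that of all genes and the share that fell below it. The median difference of the 46 was 0.32 in both genotypes against −0.02 and 0.07 for all genes. Tdg, Lig3 and Xrcc5 were among those that rose and Neil1 and Ddb2 among those that fell. Resting and LPS values did not overlap for 32 genes in +/fl cells (69.6%, against 65.6% of all genes) and for 28 in fl/fl cells (60.9%, against 62%).

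**Figure D3:**
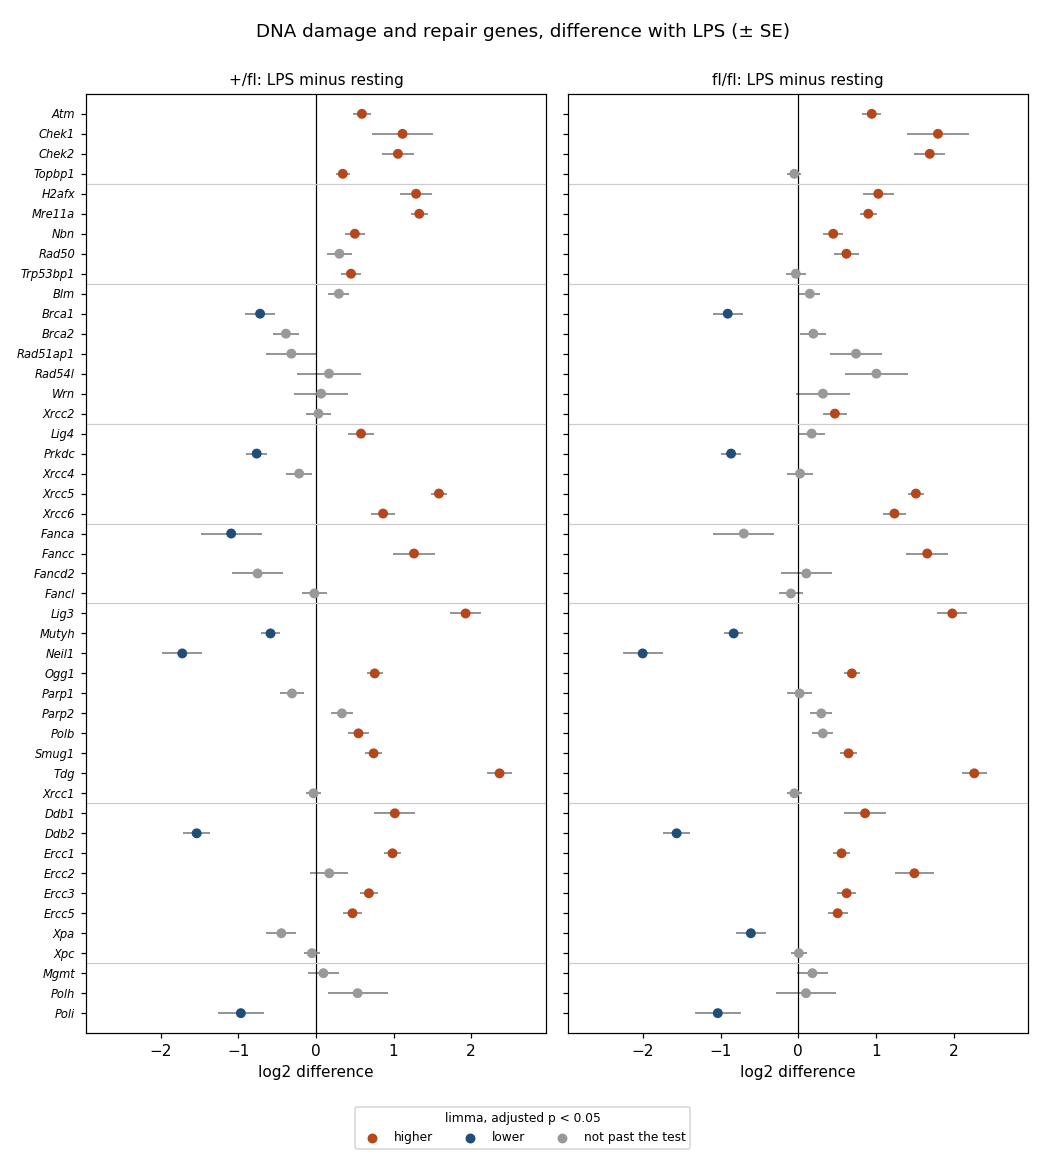
Difference with LPS (log2, LPS minus resting, with its standard error) for each of the 46 repair genes, in +/fl cells on the left and fl/fl cells on the right, with grey lines between roles. Red points rose (21 and 20 genes) and blue points fell (7 and 7), and Tdg (2.37 and 2.27) and Neil1 (−1.72 and −2.00) mark the ends of both panels.

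The counts depend on how arrays are scaled. With the median of each array in place of its 75th percentile, 14 rose and 2 fell in +/fl cells and 8 rose and 7 fell in fl/fl cells, while the median of all genes moved by 0.24 and −0.30. With quantile normalization 18 rose and 10 fell in +/fl cells. Without LPS fl/fl 2 the counts in fl/fl cells were 18 and 7.

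Markers of several cell types moved with LPS as well. Of 10 B cell markers 6 fell in +/fl and 6 in fl/fl cells (medians −1.11 and −2.31), and their summed signal went from 574 to 720 down to 324 to 328 in +/fl and from 525 to 596 down to 253 to 305 in fl/fl cells. Of 15 monocyte, macrophage and neutrophil markers 10 fell and none rose in +/fl cells, while 7 fell and 4 rose in fl/fl cells (medians −2.04 and −0.84). Their summed signal was 44.9 to 190 in resting and 39.3 to 123 in LPS-treated +/fl cells. In fl/fl cells the sums were higher after LPS, 63.9 to 121 against 32.4 to 52.8 in resting cells. Of 10 erythroid markers 7 fell in +/fl cells and 3 fell and 1 rose in fl/fl cells, of 10 T cell markers 4 fell in +/fl cells and 2 fell and 1 rose in fl/fl cells, and of 6 platelet markers 4 and 3 fell. Of 30 cycling-cell genes 4 rose and 4 fell in +/fl cells, and 6 rose and 4 fell in fl/fl cells. The part of these cells in the LPS responses of the repair genes was not tested.

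Base excision repair held genes that rose and genes that fell. Tdg, a glycosylase that removes thymine and modified cytosines opposite guanine, read 0.64, 0.88 and 1.31 in resting and 3.37, 3.31 and 3.25 in LPS-treated +/fl cells, a rise of 2.37 (SE 0.16, adjusted p 1.03e-06, 5.15-fold). In fl/fl cells it went from 0.76, 0.83 and 0.92 to 2.97, 3.06 and 3.28, a rise of 2.27 (SE 0.16, adjusted p 1.48e-06). All 6 LPS arrays lay above all 6 resting arrays. Its second probe, for another transcript, rose by 2.21 in both genotypes, but the files place the 2 probes at separate sites of chromosome 10, so a near-identical copy of the gene may share the signal and Tdg is uncertain in this respect.

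Lig3, the ligase that seals the nick with Xrcc1, read −2.05, −1.70 and −1.74 in resting and −0.02, 0.25 and 0.06 in LPS-treated +/fl cells (1.93, SE 0.20, adjusted p 1.61e-05). In fl/fl cells it read −2.49, −1.70 and −2.34 before and −0.17, −0.11 and −0.30 after LPS (1.98, SE 0.20, adjusted p 1.45e-05). Xrcc1 itself read −0.03 and −0.05 and did not pass in either genotype (adjusted p 0.816 and 0.705). Neil1, a glycosylase for oxidised pyrimidines, fell from 2.10, 3.16 and 2.82 to 1.28, 0.70 and 0.93 in +/fl cells, a difference of −1.72 (SE 0.26, adjusted p 0.000254). In fl/fl cells it fell from 2.85, 2.46 and 2.81 to 0.86, 0.50 and 0.74 (−2.00, SE 0.26, adjusted p 9.87e-05). No LPS array of Neil1 reached the lowest resting array. Of the other glycosylases, Ogg1 (0.76 and 0.69), which acts on oxidised guanine, and Smug1 (0.74 and 0.65), which acts on uracil, rose in both genotypes, and Mutyh (−0.58 and −0.83), which removes adenine opposite oxidised guanine, fell in both. Polb, the gap-filling polymerase, rose in +/fl cells (0.55, adjusted p 0.00541) and read 0.32 in fl/fl cells (adjusted p 0.0697).

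**Figure D4:**
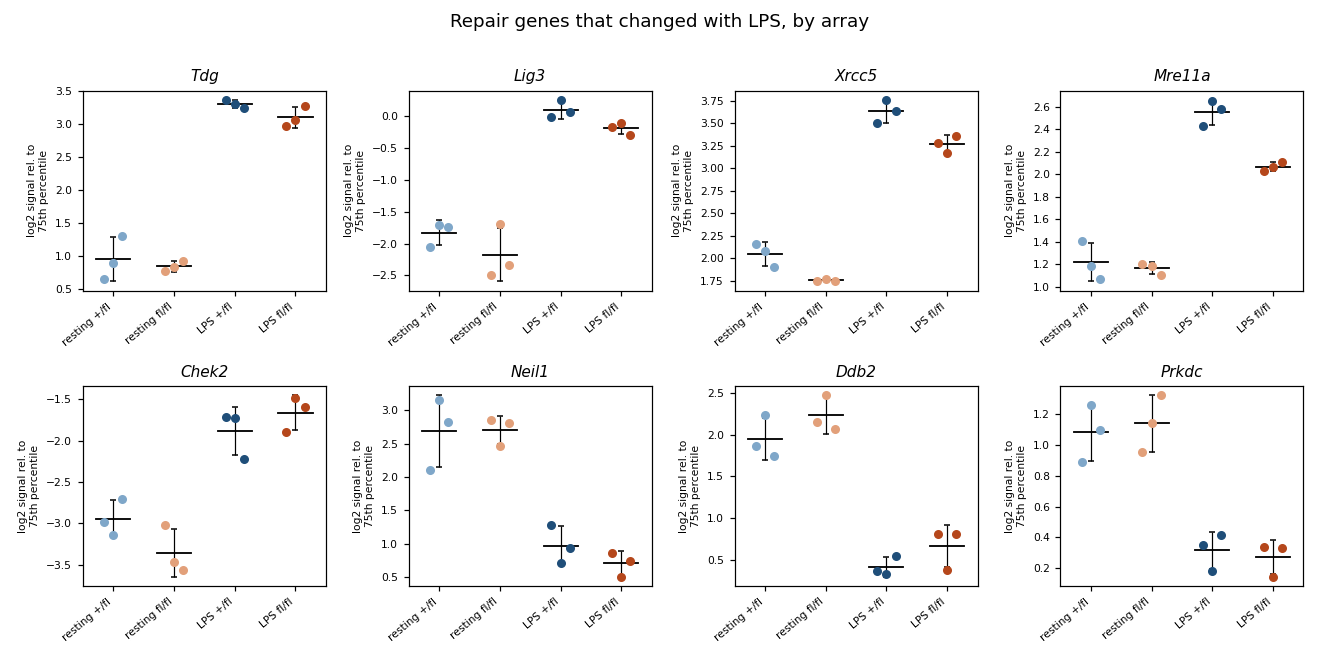
Signal of 8 repair genes that changed with LPS in both genotypes (log2 relative to the array's 75th percentile), 1 point per array in each of the 4 groups, with the mean (line) and SD (bars, n = 3). Tdg, Lig3, Xrcc5, Mre11a and Chek2 rose and Neil1, Ddb2 and Prkdc fell, with no overlap between the 6 resting and the 6 LPS arrays in any panel.

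In end joining the Ku subunits and their kinase moved apart. Xrcc5 read 2.16, 2.08 and 1.90 in resting and 3.50, 3.76 and 3.64 in LPS-treated +/fl cells, a rise of 1.58 (SE 0.11, adjusted p 9.89e-07), and rose by 1.51 in fl/fl cells (adjusted p 1.45e-06). Xrcc6 rose by 0.87 and 1.24 (adjusted p 0.000671 and 6.36e-05), reaching 1.47 to 1.66 in +/fl and 1.22 to 1.47 in fl/fl cells. Prkdc, the catalytic subunit of the kinase that Ku recruits, fell by 0.76 and 0.87 on the log2 scale (adjusted p 0.000714 and 0.000335). Lig4, the ligase of the pathway, rose in +/fl cells (0.58, adjusted p 0.0133) and read 0.17 in fl/fl cells (adjusted p 0.416), while its partner Xrcc4 did not pass (−0.22 and 0.02).

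The checkpoint kinases rose in both genotypes. Chek2, which ATM activates after a break, read −3.02, −3.47 and −3.57 in resting and −1.90, −1.49 and −1.60 in LPS-treated fl/fl cells, a rise of 1.69 (SE 0.20, adjusted p 5.56e-05), and rose by 1.06 in +/fl cells (adjusted p 0.00123). With normexp the rises of Chek2 were 0.53 and 0.40. Chek1 rose in fl/fl cells from −4.43, −5.80 and −4.04 to −3.08, −2.58 and −3.22 (1.80, SE 0.39, adjusted p 0.00304), although with normexp this difference was 0.23 (adjusted p 0.188). Even so, every fl/fl LPS array of Chek1 stayed below the +/fl LPS arrays. In +/fl cells Chek1 rose by 1.12 (adjusted p 0.0334), a call that ended without any 1 of 5 arrays: resting +/fl 2 or 3, or LPS +/fl 1, 2 or 3 (adjusted p 0.0584 to 0.111). Atm rose by 0.59 and 0.95 (adjusted p 0.00178 and 8.67e-05). Topbp1, which activates ATR, rose in +/fl cells (0.35, adjusted p 0.0074; 0.16 and not called with quantile normalization) and read −0.05 in fl/fl cells (adjusted p 0.664).

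Of the genes that recognise breaks, Mre11a, Nbn and H2afx rose in both genotypes. Mre11a went from 1.41, 1.18 and 1.07 to 2.43, 2.65 and 2.58 in +/fl cells (1.33, SE 0.11, adjusted p 3.43e-06) and rose by 0.90 in fl/fl cells (adjusted p 5.53e-05). H2afx, the histone variant phosphorylated around breaks, rose by 1.29 and 1.03 (adjusted p 0.000333 and 0.00155), and Nbn, which completes the Mre11a complex, by 0.50 and 0.45 (adjusted p 0.00684 and 0.0126). The Nbn call in fl/fl cells ended without LPS fl/fl 1 (adjusted p 0.0524), and with the mean of its probes Nbn read 0.13 and 0.16, past the test in neither genotype. Trp53bp1, which shields broken ends from resection, rose in +/fl cells (0.45, adjusted p 0.0134; 0.27 and not called with quantile normalization) and read −0.03 in fl/fl cells (adjusted p 0.857). Rad50, the third gene of that complex, rose in fl/fl cells (0.62, adjusted p 0.00745) and read 0.30 in +/fl cells (adjusted p 0.131), and with the mean of its probes the fl/fl value was −0.12 (adjusted p 0.633).

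In nucleotide excision repair Ddb1 and Ddb2, the subunits that find ultraviolet damage in chromatin, moved apart. Ddb2 fell from 1.87, 2.24 and 1.74 to 0.37, 0.32 and 0.55 in +/fl cells (−1.54, SE 0.18, adjusted p 3.83e-05) and from 2.15, 2.48 and 2.07 to 0.81, 0.38 and 0.81 in fl/fl cells (−1.57, SE 0.18, adjusted p 3.68e-05). Ddb1 rose by 1.02 and 0.86 (adjusted p 0.00789 and 0.0192), though its fl/fl values overlapped between resting and LPS and that call ended without resting fl/fl 1, LPS fl/fl 1 or LPS fl/fl 2 (adjusted p 0.0593 to 0.0644). Ercc1 (0.99 and 0.56) and Ercc5 (0.47 and 0.51), which belong to the nucleases that cut on either side of the lesion, and the helicase Ercc3 (0.68 and 0.62) rose in both genotypes. Ercc2, the other helicase of TFIIH, rose 2.82-fold in fl/fl cells (adjusted p 0.000506; log2 difference of 0.73 with normexp) and read 0.17 in +/fl cells (adjusted p 0.58). Xpa, which checks the damaged strand, fell in fl/fl cells (−0.61, adjusted p 0.0205, lost without resting fl/fl 1 or LPS fl/fl 1) and read −0.44 in +/fl cells (adjusted p 0.0713).

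Of the 7 genes of recombination and the RecQ helicases 1 passed in +/fl cells and 2 in fl/fl cells. Brca1 fell in both genotypes (−0.72 and −0.91, adjusted p 0.0089 and 0.00248), with −0.27, −0.61 and 0.03 in resting and −0.82, −1.15 and −1.03 in LPS-treated +/fl cells. Xrcc2, a recombination gene, rose in fl/fl cells (0.47, adjusted p 0.0275), a call that ended without resting fl/fl 1, LPS fl/fl 1 or LPS fl/fl 2, and read 0.03 in +/fl cells. Its other probe tested read 0.64 in fl/fl and 1.01 in +/fl cells. Rad51ap1 read 0.74 in fl/fl (adjusted p 0.083) and −0.32 in +/fl cells (adjusted p 0.447), and Rad54l 1.01 (adjusted p 0.0583) and 0.16 (adjusted p 0.749). Of the Fanconi anaemia genes Fancc, another part of the core complex, rose in both genotypes, from −0.87, −1.85 and −1.89 to 0.11, 0.14 and 0.13 in fl/fl cells (1.66, SE 0.27, adjusted p 0.000467) and by 1.26 in +/fl cells. Fanca fell in +/fl cells (−1.09, adjusted p 0.037), lost without any 1 of 5 arrays, namely resting +/fl 1, 2 or 3 and LPS +/fl 1 or 2, and read −0.70 in fl/fl cells (adjusted p 0.162). Poli, an error-prone polymerase that copies past lesions, fell in both (−0.97 and −1.04, adjusted p 0.0166 and 0.0123), and the +/fl call ended without resting +/fl 2 or 3 or LPS +/fl 2 or 3.

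The LPS responses of the genotypes share no arrays. Of the 21 genes that rose in +/fl cells and the 20 in fl/fl cells, 17 did so in both (81.0% and 85% of each list), and 6 of the 7 that fell in each did so in both (85.7%). Among all genes these shares were 80.8% and 82.0% for rises and 74.4% and 79.1% for falls. Lig4, Polb, Topbp1 and Trp53bp1 passed as higher in +/fl cells alone and Ercc2, Rad50 and Xrcc2 in fl/fl cells alone. At Lig4 the other probe tested read 0.18 in +/fl and 0.34 in fl/fl cells, and at Polb 0.38 and 0.66. It read −0.13 and 0.58 at Trp53bp1, 1.01 and 0.64 at Xrcc2, and −1.19 and −0.85 at Rad50. Of these genes, only at Rad50 did the response differ between genotypes in the same direction at both probes. A call in 1 genotype is no test of a difference, and the interaction, the LPS response of fl/fl cells minus that of +/fl cells, passed in none of the 46 genes in limma, against 0.162% of all genes (0.104% higher and 0.0579% lower; 7 of the 46 had an unadjusted p under 0.05, against 20.2% of all genes, and every other setting run gave 0 as well). The largest value was at Ercc2, which read −3.40, −2.49 and −3.08 in resting and −1.44, −1.14 and −1.91 in LPS-treated fl/fl cells but −2.58, −2.36 and −2.26 and then −2.21, −2.10 and −2.37 in +/fl cells. Its interaction was 1.32 (SE 0.35, adjusted p 0.107). By p-value Topbp1 (−0.40, adjusted p 0.144) and Mre11a (−0.43, adjusted p 0.171) came next. Blm, Fancl, Mgmt, Parp2, Polh, Wrn, Xpc, Xrcc1 and Xrcc4 passed in no comparison.

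Several probes were tested for 30 of the 62 differences called, and in 6 of the 30 another probe had the opposite sign. These were Mre11a and Nbn in both LPS responses, Rad50 in fl/fl cells and Trp53bp1 in +/fl cells. At Mre11a the probe for AK161013 read −0.17 in +/fl and −0.34 in fl/fl cells, and at Nbn the probe for AK085134 read −0.27 and −0.41. At Lig3 the other probe rose by 2.25 in +/fl cells, and at Parp1 it read −0.59 in resting cells.

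Other repair genes, from a list of 71 that holds none of the 49, were measured for 64. In resting cells 9 of the 64 were lower in fl/fl cells (14.1%, against 4.15% of all genes). Only Ercc6 was higher (0.55), or 1 of 64 (1.56%, against 4.64% of all genes), and the median was −0.01. Among those with the smallest p were Apex1, the endonuclease that cuts at abasic sites (−0.81, SE 0.12, adjusted p 0.00816), Fen1, the flap endonuclease (−0.72, adjusted p 0.00929), and Ube2t, the enzyme that conjugates ubiquitin to FANCD2 (−0.54, adjusted p 0.0149). After LPS 2 of the 64 were lower (3.13%, against 0.764% of all genes). They were Tipin, which steadies stalled forks (−0.69, adjusted p 0.0307), and Gtf2h4, a subunit of TFIIH (−0.41, adjusted p 0.0485). With LPS 31 rose and 10 fell in +/fl cells and 27 rose and 12 fell in fl/fl cells. The shares called, 64.1% and 60.9%, were near those of all genes (57.6% and 55.5%). Apex1 rose by 2.70 and 3.24 and Ung, the main uracil glycosylase, by 2.25 and 2.31. Of 10 further nucleotide excision genes 9 rose in +/fl cells and 7 in fl/fl cells, where 30.6% and 30.2% of all genes rose. None passed in the interaction, where Gtf2h4 read −0.59 (adjusted p 0.0778).

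The mean log2 signal over the 46 genes was 0.08 to 0.14 in resting fl/fl, 0.37 to 0.45 in resting +/fl, 0.39 to 0.57 in LPS fl/fl and 0.67 to 0.68 in LPS +/fl cells, and the ranges overlapped only between resting +/fl and LPS fl/fl. The highest LPS fl/fl mean was on replicate 2, the array with more spots above background. Over the 12 arrays the genes outside both lists whose values ran most like the mean standardised value of the 46 were Wnt10a (r = 0.985), Coq7 (0.982), Tmem17 (0.980), BC003324 (0.980) and Smyd2 (0.975). The arrays fall into resting and LPS sets, and within the 6 resting and 6 LPS arrays r was 0.996 and 0.953 for Wnt10a. These correlations describe 12 arrays that share their normalization and were not tested.

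**Figure D5:**
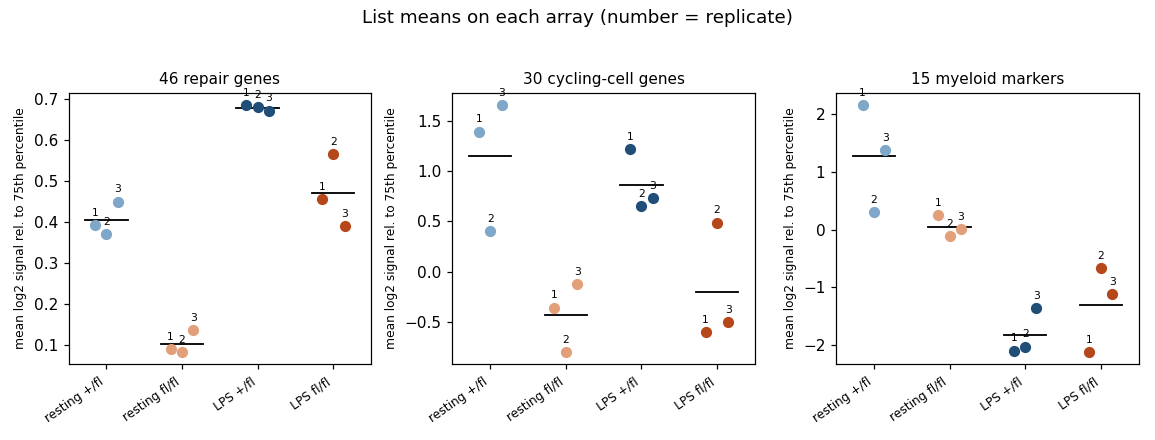
Mean signal (log2 relative to the array's 75th percentile) of the 46 repair genes, of 30 cycling-cell genes and of 15 monocyte, macrophage and neutrophil markers on each array, numbered by replicate, with the group mean as a line. In resting cells the fl/fl arrays lie below the +/fl arrays for all 3 lists, while LPS +/fl cells have the highest repair mean (0.67 to 0.68) and low myeloid means (−2.10 to −1.36).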

How the data were processed

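Each of 12 Agilent 1-colour mouse 4x44k arrays (Cy3) was read from its scanner output. Per the file headers the values are intensity, the background-subtracted signal of each spot, from Feature Extraction 9.5.3.1 (9.1 per the submitters' processing notes), with probe positions on mm7. The deposited table of values, intensity on a linear scale with a median of 30.8 in every column, served as an alternative and ranked the probes as the scanner did (Spearman 0.9999 to 1.00). The sources used here do not say how it was normalized.

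Spots marked as outliers were left out and 87 of 41174 probes with them. Values are log2 of the scanner's background-subtracted signal, less the 75th percentile of each array. The 25675 probes that stood well above background on 3 or more of 12 arrays gave 17276 genes by the file's gene name, each read from its brightest probe. The 4 group means were fitted with limma 3.58.1 in R 4.3.3 (data.table, version 1.17.8; 1.79 prior degrees of freedom), tested on simulated data, with no batch term. Every array value is given for up to 6 genes per comparison, those with the largest differences that passed without overlap, and for uncalled genes where a comparison turned on them, chosen after their values were seen. Replicate numbers were not used to pair the samples, and whether they do pair them is not known. The genes, lists and tests were chosen with earlier results of these data known. Alternatives were another scaling, background correction, filter, probe rule, variance model, slide or replicate block, fewer arrays and the deposited values. Normexp (offset 50) was run only after local backgrounds over 2 times the median were set to the median (44 spots), since a few such spots inflate its background on 3 arrays. A few values are not reported here.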

Additional observations from a re-analysis of the deposited data

How the results depend on the processing

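Of the 7 genes lower in resting fl/fl cells, 4 passed with median scaling, 3 without the filter on dim probes, 0 on the arrays of the comparison alone and 1 without the pair of arrays that share a number. Without resting +/fl 1 and 3 only 1 array is left in that group, so that setting is described above by effect size. With the replicate number as a block 4 passed. Deviations of same-numbered samples correlated at −0.08 to 0.13. Those of the 2 arrays that share a number in their sample names correlated at 0.13. This check therefore cannot tell whether the replicate numbers pair samples. The block changed the counts after LPS (0), with LPS (27 and 26) and in the interaction (0) by at most 1. Leaving out each array gave 2 to 8 of the 46 genes, among them Fancc, Lig3 or Rad50, which are not of the 7. After LPS the count of 0 became 1 with median scaling, 2 with normexp, 1 with the filter on all 12 arrays, 1 with trended and robust variance and 0 to 1 without each array. The LPS counts became 16 (+/fl) and 15 (fl/fl) with median scaling, and 25 to 31 and 24 to 30 without each array. Of 1891 alternative values of 73 named differences, 1739 kept their direction and side of the threshold, 144 lost and 7 gained the call, and 1 reversed (Rad50 in fl/fl cells, −0.12 with the mean of its probes). The causes were not tested. Median scaling moved the median of all genes by −0.52 between genotypes after LPS. Low signal limits Chek1, Fancd2 and Polh, each above background on 11 of 12 arrays, and 3 arrays a group limit all precision.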
